A study of Mus musculus with 6 samples.

Results

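The guanylate-binding proteins (GBPs) and the immunity-related GTPases (IRGs) were measured as a list of 10 mouse genes, Gbp2, Gbp3, Gbp4, Gbp5, Gbp6, Gbp7, Igtp, Irgm1, Irgm2 and Iigp1. A gene was taken from the deposited table when the platform annotation gave it a probe set of its own, which held for 9 of the 10 among 22180 genes in all. For Gbp2 the annotation names a probe set only jointly with its neighbour Gbp2b, and Gbp2 was not analysed here. Each of the 9 had a single probe set.

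Expression was measured on 6 Affymetrix Mouse Gene 2.0 ST arrays hybridised with amplified RNA from intestinal blood endothelial cells, taken from adult mice on a mixed C57BL/6 x 129 background, 3 from KO mice and 3 from WT mice. KO mice (Apcfl//fl; Villin-CreERT2) carried floxed Apc and a tamoxifen-dependent recombinase whose promoter is active in intestinal epithelium, so that the deletion of Apc, a brake on Wnt signalling, is directed to epithelium and not to the sorted cells. WT mice (Apcfl//fl) also carried floxed Apc and have no Cre in their labels, and mice of both genotypes are described as receiving tamoxifen daily for 5 days before harvest on day 6. The sort kept CD31-positive cells and excluded those with CD45, EpCAM or gp38. The labels call the arrays biological replicates, and whether animals were pooled is not given in the sources used here.

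GBPs and IRGs are GTP-binding proteins that most mouse cells, endothelium included, make in response to interferon-gamma. They gather on the vacuoles or surfaces of intracellular microbes, where effector IRGs and GBPs break membranes and promote inflammasome signalling. The IRGM proteins, encoded by Irgm1, Irgm2 and Igtp, sit on the cell's own membranes and hold the effector IRGs inactive there. Interferon-gamma acts through its receptor and JAK kinases, and its target genes carry gamma-activated sites (GAS) and interferon-stimulated response elements (ISRE), the second of which the factor IRF1 binds.

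Upstream sequences are shown for the 3 members that fell, Gbp5, Igtp and Irgm2, and for Irgm1, which had the smallest change, so that their interferon motif cores can be compared. Each is the 250 bases before a RefSeq transcript start in GRCm38.p6, printed 5′ to 3′ on the gene's strand, with capitals marking the cores. The windows are chr3:142496684-142496933 (plus strand), chr11:58199306-58199555 (plus strand), chr11:58214727-58214976 (plus strand) and chr11:48871421-48871670 (minus strand).
Gbp5: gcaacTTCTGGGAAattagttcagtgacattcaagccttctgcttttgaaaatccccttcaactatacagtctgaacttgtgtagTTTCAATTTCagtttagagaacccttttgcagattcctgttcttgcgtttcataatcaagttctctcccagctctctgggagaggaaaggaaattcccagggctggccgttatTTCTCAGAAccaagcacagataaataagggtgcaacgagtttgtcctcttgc
Igtp: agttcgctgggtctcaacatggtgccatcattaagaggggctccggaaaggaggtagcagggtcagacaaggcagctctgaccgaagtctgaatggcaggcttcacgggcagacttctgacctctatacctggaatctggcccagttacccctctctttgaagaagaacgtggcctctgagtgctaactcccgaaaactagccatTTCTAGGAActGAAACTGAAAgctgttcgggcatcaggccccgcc
Irgm2: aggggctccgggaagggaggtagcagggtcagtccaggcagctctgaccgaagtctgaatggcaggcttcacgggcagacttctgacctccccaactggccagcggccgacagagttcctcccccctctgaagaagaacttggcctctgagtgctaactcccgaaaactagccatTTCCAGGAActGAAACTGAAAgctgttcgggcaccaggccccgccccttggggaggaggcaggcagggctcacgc
Irgm1: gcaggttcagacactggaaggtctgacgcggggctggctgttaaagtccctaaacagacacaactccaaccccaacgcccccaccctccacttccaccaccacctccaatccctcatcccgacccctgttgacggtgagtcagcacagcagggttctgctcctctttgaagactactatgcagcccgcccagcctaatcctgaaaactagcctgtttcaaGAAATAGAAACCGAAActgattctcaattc

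The cores searched were GAAA, any 2 bases and GAAA for the ISRE, read on both strands so that TTTC, any 2 bases and TTTC also counts, and TTCNNNGAA for GAS, which reads the same on both strands. RefSeq promoter windows, matched by symbol, were searched for 7 of the 10 members. Family windows on the chromosome that carries Iigp1 were left out of this search. All 7 held at least 1 ISRE core in a window, which 2.98% of 32851 promoter windows did. A GAS core was present for 4 of the 7 (Gbp5, Gbp7, Igtp and Irgm2), against 7.02% of all windows, and 0.332% of all windows held both cores. Gbp2, Gbp3 and Irgm1 had the ISRE core without a GAS core in these letters. In Gbp3 and Irgm1 the 2 ISRE cores overlapped each other by 4 bases. In the members' windows no ISRE core overlapped a GAS core. A match is a description of the letters and no evidence of binding, and a window without a core says nothing about the factor. The printed windows were chosen by the members' changes, and whether cores go with changes was not tested. Gbp7, with GAS cores, changed by -0.39 and Gbp3, without one in these letters, by -0.42. Neither was among the 3 that fell.

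Igtp and Irgm2 are neighbours, and their cores stood in the same arrangement, the ISRE core beginning 11 bases after the first base of the GAS core in each. The 2 windows were set side by side at the GAS core without gaps. They shared 134 of 220 bases (60.9%), and 69 of 71 bases in the stretch that ran from 30 bases before the GAS core. That stretch was chosen after the sequences were seen. Among the windows of other IRG genes, those of Tgtp1 and Tgtp2 had the same spacing of 11 bases. In the Gm12250 window the ISRE cores began at -30 and 15 bases from the first base of the GAS core. The Ifi47 and Irgq windows held neither core. In Gbp5 the GAS cores lay 245 and 52 bases before the start and the ISRE core 165 bases before it.

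**Figure D1:**
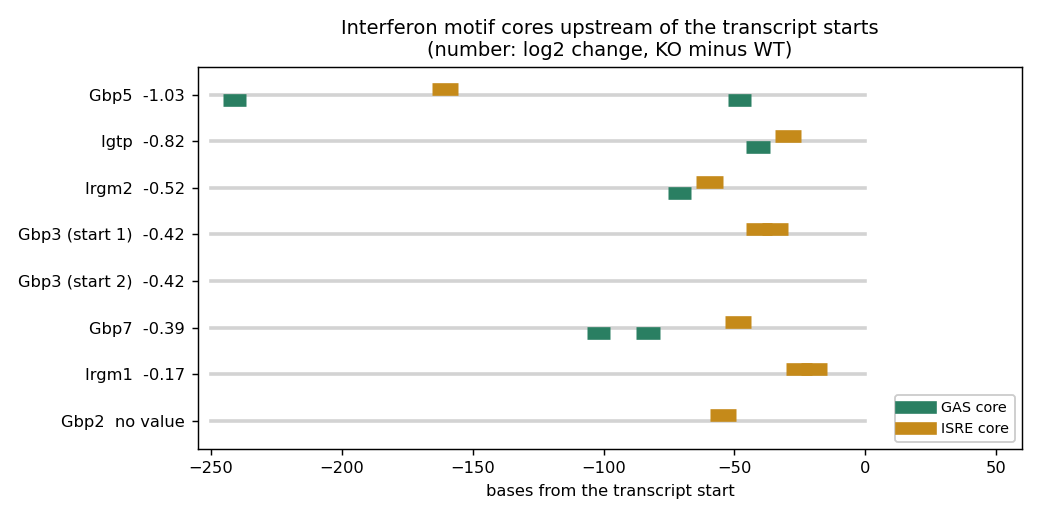
Positions of GAS cores (green) and ISRE cores (ochre) in the 250 bases before each transcript start. Shown are the 7 members whose RefSeq windows were searched, Gbp3 with 2 starts. The horizontal axis gives bases from the start, and the number beside each name is the log2 change, KO minus WT. Gbp5, Igtp, Irgm2 and Gbp7 carry GAS cores, and the second Gbp3 window carries neither core.

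Pairs of arrays correlated, over all tested genes, at 0.979 to 0.984 within KO, at 0.977 to 0.984 within WT and at 0.964 to 0.974 across the groups. The 13 endothelial markers averaged between 10.5 and 10.6 on all 6 arrays in log2 units, and Pecam1, which encodes CD31, had means of 11.43 in both groups. Values are log2 expression per probe set, and a gene was tested when its mean over the 6 arrays exceeded 4.11, the 90th percentile of 1429 sensory receptor genes that stand for background. Gbp6 lay under that level on all 6 arrays, with 2.96, 2.61 and 3.04 in KO against 3.37, 3.06 and 2.96 in WT, and was not tested. The other 8 members lay above it on all 6 arrays. In a sorted population, fewer cells carrying a transcript and less transcript per cell cannot be told apart.

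Gbp5, Igtp and Irgm2 fell in endothelium from KO mice, 3 of the 8 members tested (limma, adjusted p under 0.05). Over all 15312 genes tested, 1.47% fell, 1.1% rose and 2.57% changed in either direction. The other 5 did not pass, and none rose. All 8 changes were negative, against 53.3% of all genes, and the median was -0.46, against -0.017 over all genes. In 6 of the 8, KO and WT arrays did not overlap with KO lower, which was so for 12.3% of all genes. Array means over the 9 measured members were 7.34, 7.13 and 7.35 in KO (7.27 ± 0.13, SD, n = 3), against 7.76, 7.77 and 7.76 in WT (7.76 ± 0.011, SD, n = 3). The difference over the 9 was -0.49 and is a description of the list, with no test. Over the 8 tested members, without Gbp6, the means were 7.89, 7.69 and 7.89 in KO (SD 0.11), against 8.30, 8.36 and 8.36 in WT (SD 0.033). On both measures the groups did not overlap, and KO 2 was the lowest array. Without KO 3 only Gbp5 passed.

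Among the GBPs, Gbp5, which in mouse and human promotes assembly of the NLRP3 inflammasome, had log2 values of 6.13, 6.14 and 6.09 on the KO arrays, against 7.02, 7.38 and 7.06 on the WT arrays. The KO arrays were nearly level, and every one lay below all WT arrays, with a gap of 0.88 between the groups. Gbp5 fell by 1.03 ± 0.14 (SE) on the log2 scale, 2.04-fold lower in KO (limma adjusted p = 0.00878). The call was kept without any one array, with adjusted p from 0.00863 to 0.0473.

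Gbp7, which supports oxidative killing in mouse macrophages, had log2 values of 8.03, 7.98 and 8.10 in KO and 8.40, 8.55 and 8.33 in WT. The groups did not overlap, but the change of -0.39 ± 0.098 did not pass (limma adjusted p = 0.0748, 95% interval -0.61 to -0.17). Gbp3, part of the same gene cluster, whose deletion makes mice susceptible to Toxoplasma, had 6.75, 6.50 and 7.03 in KO and 7.30, 7.19 and 7.05 in WT. Here KO 3 and WT 3 lay only 0.019 apart, and the change of -0.42 ± 0.16 did not pass (adjusted p = 0.217). In RefSeq gene order, Gbp5, Gbp7, Gbp3, Gbp2b and Gbp2 follow each other in one cluster, so these values come from adjacent genes of related sequence.

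Gbp4, from the other mouse GBP cluster, had log2 values of 8.12, 7.75 and 8.28 in KO and 8.01, 8.46 and 8.47 in WT. WT 1 lay below 2 of the KO arrays, so the groups overlapped, and the change was -0.27 ± 0.17 (limma adjusted p = 0.499, 95% interval -0.65 to 0.12). Gbp6 belongs to the same cluster, together with Gbp8, Gbp9, Gbp10 and Gbp11. Genes within either cluster resemble each other closely enough that probes for one may also bind transcripts of another.

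Of the IRGM regulators, Igtp, also named Irgm3, had log2 values of 8.32, 7.96 and 7.996 in KO against 8.92, 8.83 and 8.98 in WT. The groups were separated by 0.51, more than the range within either. Igtp fell by 0.82 ± 0.11 on the log2 scale, 1.76-fold lower in KO (limma adjusted p = 0.0104). The call was lost without KO 3 (adjusted p = 0.058).

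Irgm2, which lies next to Igtp, had log2 values of 8.94, 8.70 and 8.85 in KO against 9.49, 9.25 and 9.32 in WT. The groups did not overlap, and Irgm2 fell by 0.52 ± 0.097, 1.44-fold lower in KO (limma adjusted p = 0.0281). This call was lost without any one of the 6 arrays, with adjusted p between 0.0505 and 0.0987, and without the mean-variance trend (adjusted p = 0.0882).

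Irgm1, the third IRGM regulator, had log2 values of 7.20, 7.24 and 7.005 in KO and 7.22, 7.27 and 7.47 in WT. The groups overlapped, and the change was -0.17 ± 0.12 (limma adjusted p = 0.549, 95% interval -0.45 to 0.11). Whether the 3 regulators' changes differ from each other was not tested.

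The effector IRG Iigp1, also named Irga6, coats the vacuole of Toxoplasma in mouse cells. It had log2 values of 9.64, 9.29 and 9.78 in KO and 10.08, 9.98 and 10.16 in WT. The groups did not overlap, with KO 2 the lowest array, and the change of -0.50 ± 0.12 did not pass (limma adjusted p = 0.0663, 95% interval -0.78 to -0.23).

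**Figure D2:**
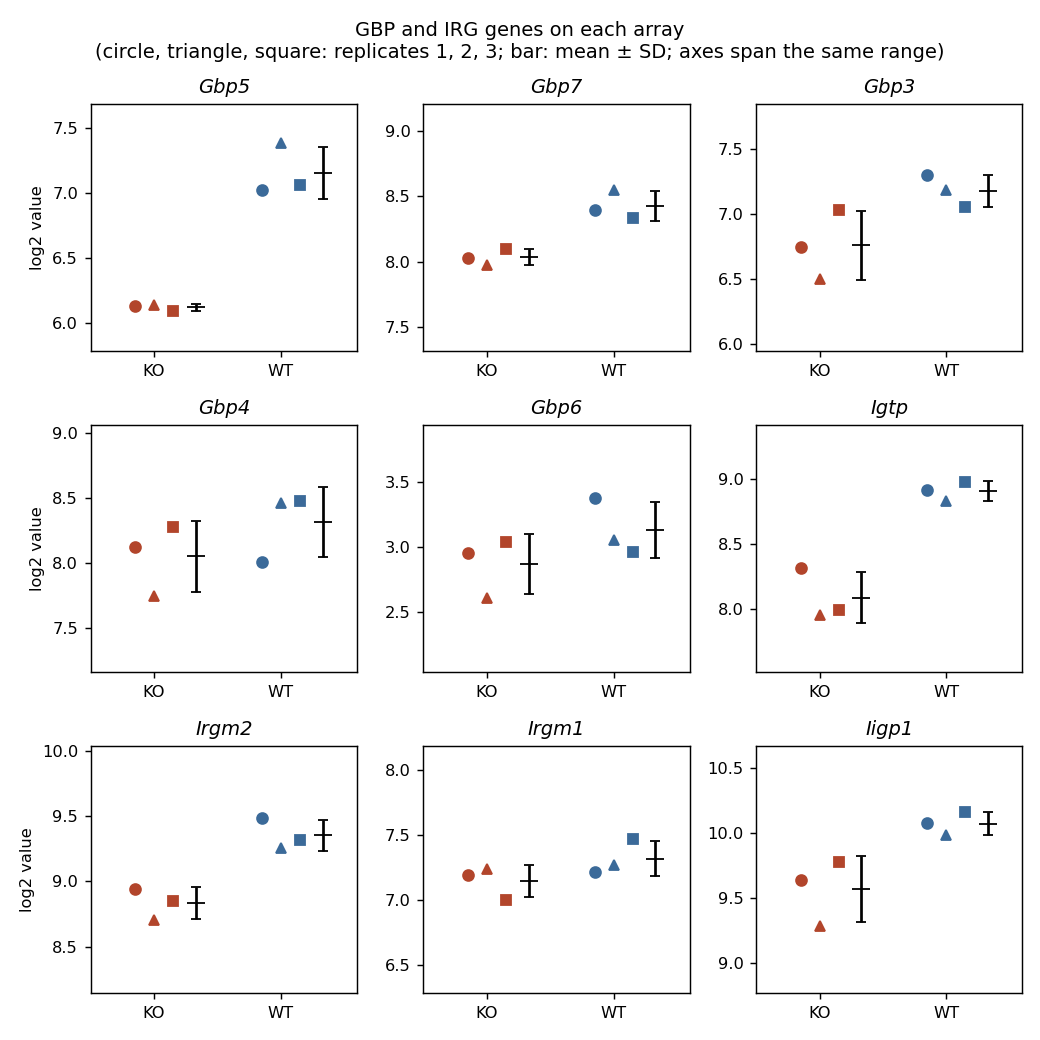
Log2 expression of the 9 measured GBP and IRG genes on each array, with KO left of WT in every panel, replicates 1 to 3 as circle, triangle and square, and the mean ± SD beside them. All panels span the same number of log2 units. Gbp5 and Igtp show the widest gaps between the groups, 0.88 and 0.51, while Gbp4, Gbp6 and Irgm1 overlap.

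The 8 tested members differed in how tightly they repeated. Within KO, the SD ran from 0.028 for Gbp5 to 0.27 for Gbp4, and within WT from 0.076 for Igtp to 0.27 for Gbp4. KO 2 was the lowest of all 6 arrays for 6 of the 8 members and KO 3 for the other two. WT 3 was the highest for 4 members, and WT 1 and WT 2 for 2 each. KO 2 also had the lowest weight among the 6 arrays in limma's array weights over all genes, 0.69, the others having 0.98 to 1.203. Without KO 2 the difference of the list mean was -0.41.

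Igtp, Gbp7, Irgm2, Iigp1 and Gbp5 followed the mean of the other members most closely over the 6 arrays, with Pearson correlations from 0.91 to 0.94. Gbp3 had 0.82, Gbp4 0.62 and Irgm1 0.51. These correlations describe 6 arrays that include the group difference. By the same measure the 8 genes outside the list closest to the mean of the tested members were Hnrnpul1, Rab18, Hmgb1, P2rx1, Lzts2, Pcdh8, Apol10b and Maob, with correlations from 0.988 to 0.993. Of 13678 genes compared, 346 had a correlation above 0.9. The 8 were picked by a pattern that includes the group difference, so their differences are given without a test. Apol10b had 6.26, 5.79 and 6.06 in KO against 6.97, 6.96 and 6.96 in WT. Maob had 4.24, 3.61 and 3.97 in KO against 5.08, 5.497 and 5.47 in WT. Maob exceeded background only through its WT level, as did Pcdh8 (means of 4.04 in KO and 4.39 in WT).

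Relatives outside the list were examined in the same fit. Of 15 further GBP and IRG genes, 11 had a probe set of their own and 9 were tested, of which 1 fell, against 1.47% of all genes, 0 rose and 8 did not pass. The median change was -0.30, 8 of the 9 were negative, and in 2 of the 9 the groups did not overlap with KO lower, against 12.3% of all genes. Members and relatives were not tested against each other. The gene that fell was Gm4951, listed in RefSeq also as Ifgga2, which lies in one cluster with Iigp1, with 2 listed genes between them. It had log2 values of 8.36, 7.71 and 8.47 in KO against 9.24, 8.97 and 9.36 in WT, a fall by 1.01 ± 0.19 (limma adjusted p = 0.0312). Gbp10 had 8.68, 8.67 and 8.75 in KO and 9.14, 9.02 and 9.40 in WT. Its groups did not overlap, but its change of -0.48 ± 0.11 did not pass (adjusted p = 0.0523). Gbp9 changed by -0.22 ± 0.10 (adjusted p = 0.345). Gbp2b, the partner of Gbp2 in the shared probe set, varied more among WT arrays than between the groups. It had 5.53, 5.03 and 4.90 in KO and 7.79, 4.17 and 5.21 in WT, WT 1 standing far above the rest. Gbp2b was chosen after its values were seen.

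**Figure D3:**
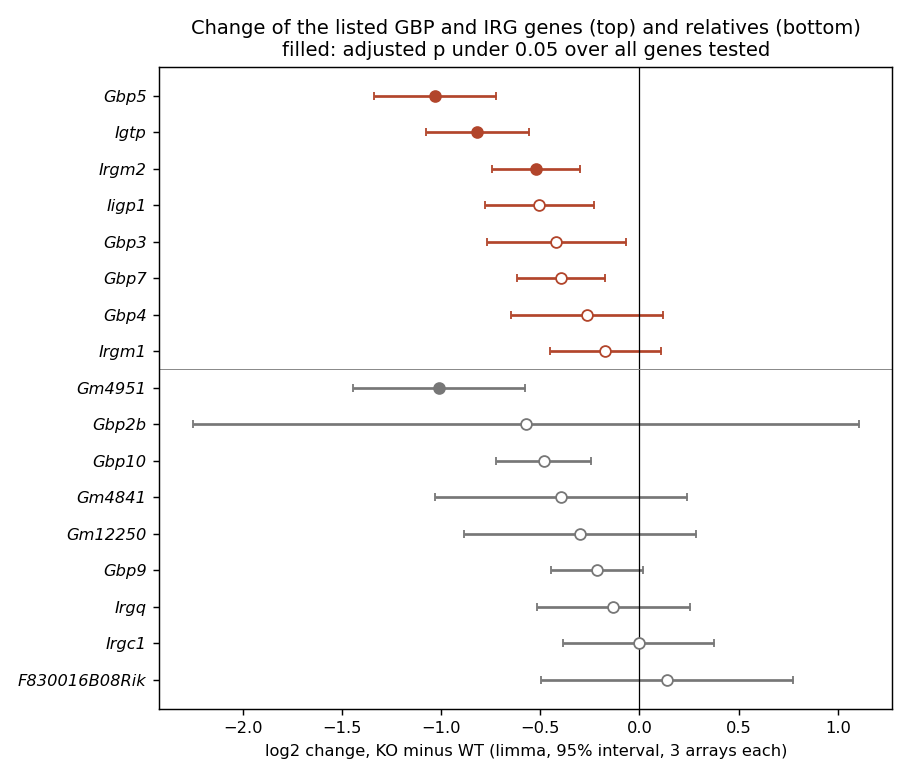
Log2 change, KO minus WT, of the 8 tested members (red, top) and 9 relatives (grey, bottom), with the 95% interval of the limma fit and 3 arrays per group. Filled points passed an adjusted p of 0.05. Gbp5, Igtp, Irgm2 and Gm4951 are filled, and Gbp2b has the widest interval.

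Interferon signalling and its other targets were examined through 70 listed genes that are not members, 16 of them signalling genes and the others targets of interferon-gamma or type I interferon, and 65 were tested. Of these, 8 fell, 0 rose and 57 did not pass, against 1.47% falling among all genes, and the median change was -0.22. The count was 5 without KO 1, 3 without KO 2, 1 without KO 3, 3 without WT 2 and 1 without WT 3, so that single arrays decided much of it. Ifng, the gene for interferon-gamma itself, lay under background on all 6 arrays, at 3.99, 3.91 and 3.69 in KO and 4.10, 3.48 and 3.62 in WT.

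Among 14 tested genes of interferon-gamma signalling, 2 fell, against 1.47% of all genes, 0 rose and 12 did not pass. Their median change was -0.093. Ifngr2, the signalling chain of the receptor, had 7.71, 7.76 and 7.65 in KO against 8.25, 8.42 and 8.18 in WT, a fall by 0.58 ± 0.10 (limma adjusted p = 0.0258). Irf1 had 8.38, 8.35 and 8.34 in KO against 9.02, 8.71 and 8.80 in WT, a fall by 0.49 ± 0.099 (adjusted p = 0.0406). For both genes the KO arrays lay close together and below all WT arrays. The ligand-binding chain gene Ifngr1 was at -0.16 ± 0.072 (adjusted p = 0.297) and the kinase gene Jak1 at 0.11 ± 0.075 (adjusted p = 0.519). Socs3, a feedback inhibitor, was at -0.43 ± 0.10 (adjusted p = 0.0692). In 5 of the 14 the groups did not overlap with KO lower, against 12.3% of all genes. In 3 genes of the list the groups did not overlap with KO higher, against 9.78% of all genes, and none of these 3 passed. They were the kinase gene Jak2 at 0.44 ± 0.12 (adjusted p = 0.102), the transcription factor gene Irf8 at 0.97 ± 0.29 (adjusted p = 0.129) and the phosphatase gene Ptpn2 at 0.37 ± 0.13 (adjusted p = 0.204). Irf8 and Ptpn2 were chosen after their values were seen.

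Of 26 other interferon-gamma targets, with a median of -0.23, 0 rose, 22 did not pass and 4 fell, against 1.47% of all genes. They were the immunoproteasome genes Psmb9 (-0.41 ± 0.066, limma adjusted p = 0.0178) and Psmb10 (-0.35 ± 0.071, adjusted p = 0.0391), the nucleotide hydrolase gene Samhd1 (-0.52 ± 0.087, adjusted p = 0.0205) and Tapbp, for the peptide-loading factor tapasin (-0.54 ± 0.12, adjusted p = 0.0482). Nearest to passing were Psmb8 at -0.27 (adjusted p = 0.199) and Parp14 at -0.35 (adjusted p = 0.216). Of 25 type I interferon targets, 2 fell, against 1.47% of all genes, 0 rose and 23 did not pass, with a median of -0.22. The 2 were Rsad2, for the antiviral enzyme viperin (-1.21 ± 0.18, adjusted p = 0.0137), and the nucleotide kinase gene Cmpk2 (-0.94 ± 0.12, adjusted p = 0.00792). Bst2, for the virus-tethering protein tetherin, was at -0.43 (adjusted p = 0.0533) and Xaf1 at -0.36 (adjusted p = 0.0897). In 12 of the 25 type I targets the groups did not overlap with KO lower, against 12.3% of all genes. The same held for 8 of the 26 other interferon-gamma targets. Groups that did not overlap with KO higher were found for 0 genes of either list, against 9.78% of all genes.

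Genes whose proteins act with GBPs and IRGs at vacuoles or in inflammasomes, such as autophagy conjugation factors and caspases, showed no call. Of 18 tested, 0 passed in limma, and the median change was 0.038, with 8 negative. An unadjusted p under 0.05 was reached by 2, against 2514 of all 15312 genes tested. Those 2 were the ubiquitin ligase gene Trim21 at -0.53 ± 0.16 (adjusted p = 0.148) and the inflammasome protease gene Casp1 at -0.47 ± 0.18 (adjusted p = 0.234).

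**Figure D4:**
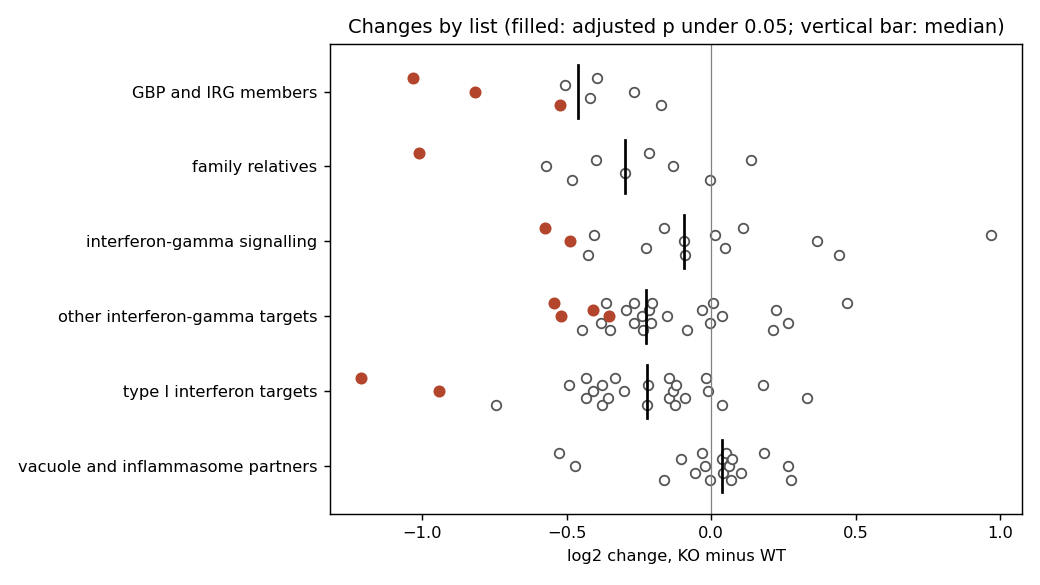
Log2 change, KO minus WT, of each tested gene in 6 lists, with filled points for adjusted p under 0.05 and a vertical bar at each list's median. The members' median of -0.46 lies left of the other lists, whose medians run from -0.30 for relatives to 0.038 for vacuole and inflammasome partners.

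Other cell types' transcripts also moved between the groups. Of 18 T and NK cell markers, 11 were tested and 0 passed in limma. An unadjusted p under 0.05 was reached by 5, against 2514 of all 15312 genes tested. Cd3g is counted among the 5 although it exceeded background only through its WT level (3.53 in KO and 5.00 in WT). Of the 11 markers, 10 were negative (median -0.52), against 53.3% of all genes. Gzmb, like Cd3g, exceeded background only through its WT level. A gene kept in this way is negative by construction, and Cd3g and Gzmb enter the count, the median and the list mean. The mean level of the 11 markers ran from 4.57 to 4.78 on KO arrays and from 5.00 to 5.65 on WT arrays. Cd2, Klrd1, Klrb1c and Ncr1 did not exceed background in their mean, and Ptprc, which encodes the sorted-out CD45, was near it at 4.14 in KO and 4.46 in WT. The granule protease gene Gzma had 4.95, 4.86 and 5.16 in KO and 6.57, 7.998 and 6.02 in WT (-1.87 ± 0.42, limma adjusted p = 0.0536), and the T cell receptor component gene Cd3d was at -0.68 ± 0.18 (adjusted p = 0.0997). All 3 WT arrays lay above all KO arrays in this mean level. The part of these cells' RNA in the members' values was not tested.

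Enterocyte markers fell in 9 of 14 tested, against 1.47% of all genes. Their mean levels ran from 5.31 to 5.68 on KO arrays and from 6.70 to 8.66 on WT arrays. Sis is counted among the 9 although it exceeded background only through its WT level (means of 3.80 in KO and 6.88 in WT). The same held for Epcam, which did not pass (3.77 in KO and 5.77 in WT). Among the WT arrays the enterocyte level was lowest in WT 1 and highest in WT 2. The mean of the 8 tested members was 8.30 in WT 1, 8.36 in WT 2 and 8.36 in WT 3. Among the KO arrays the enterocyte level was highest in KO 2 (5.68), where the mean of the members was lowest (7.69). Mural cell markers fell in 6 of 12, against 1.47% of all genes. Their mean levels ran from 7.72 to 8.06 in KO and from 8.41 to 8.79 in WT. Of the 12 changes, 11 were negative, against 53.3% of all genes. The mural marker Abcc9 went the other way and did not pass (0.49 ± 0.17, limma adjusted p = 0.179). The part of enterocyte and mural RNA in the members' values was not tested. Of 13 macrophage and dendritic cell markers, and of 6 B cell markers, 0 passed in limma. An unadjusted p under 0.05 was reached by 0 and 1 of them, against 2514 of all 15312 genes tested. Among 7 lymphatic and fibroblast markers 1 rose, Lyve1, and among 13 endothelial markers Eng rose and Cldn5 fell. Over all genes 1.1% rose and 1.47% fell. In 5 of the 13 endothelial markers the groups did not overlap with KO higher, against 9.78% of all genes. In 2 of the 13 they did not overlap with KO lower, against 12.3%.

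**Figure D5:**
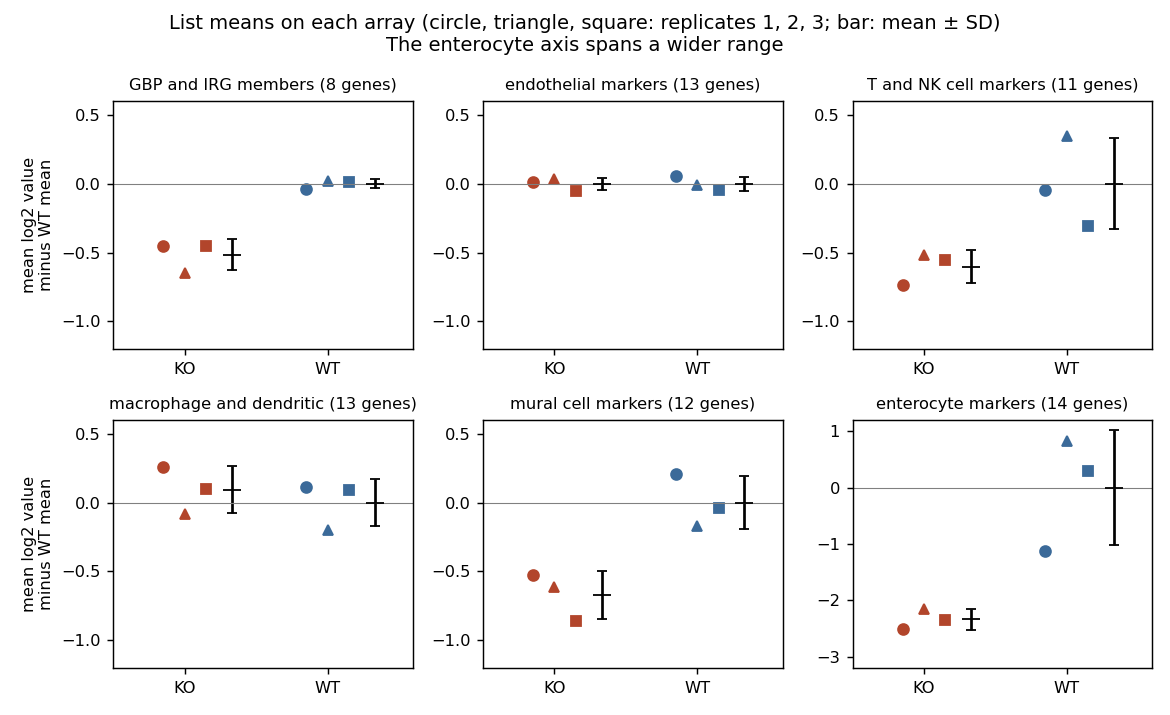
Mean log2 value of 6 gene lists on each array, relative to the WT mean of the list, with KO left of WT and the mean ± SD of 3 arrays beside them. The means of the 8 tested GBP and IRG members, the T and NK cell markers, mural markers and enterocyte markers lie lower on KO arrays. The mean of the endothelial markers is level, although single markers moved either way. The enterocyte panel spans a wider range.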

How the data were processed

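Per the submitters' processing notes, oligo was used with RMA, and the deposited table holds the resulting log2 values per probe set. RMA corrects background, normalizes by quantiles across arrays and summarises probes. Versions are not given in the sources used here. Quantile normalization gives all arrays the same overall distribution, so changes are relative to it. Arrays have no read depth, and their number limits the precision.

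Of 41345 probe sets, 23521 carried 1 gene symbol in the platform annotation, 1814 several and 16010 none. Symbols were updated by gene identifier through RefSeq (GRCm38.p6). Each gene took its probe set with the highest mean, and 15312 of 22180 genes exceeded background. KO was compared with WT with limma 3.58.1 in R 4.3.3 (lmFit and eBayes, in which the prior variance followed the mean level). Tests were two-sided, and p-values were adjusted by Benjamini-Hochberg over all genes tested. Log2 changes are KO minus WT, and ± after a change is the standard error of that fit. The procedure was tested on simulated data. Figures used matplotlib 3.10.9 in Python 3.11.15. RefSeq promoter windows gave the sequences.

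The members and gene lists were chosen with earlier results of these data known. Named genes are all members, the listed genes that passed (up to 6 a list), the 2 nearest to passing, main signalling genes, leading markers of other cell types and the 8 genes closest in pattern. Alternatives covered the background filter, normalization, probe sets, variance model, array weights, a replicate block and each array left out.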

Additional observations from a re-analysis of the deposited data

How the results depend on the processing

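Gbp5 passed under all 15 alternatives, Igtp under 14 and Irgm2 under 8. The difference of the member mean stayed between -0.53 and -0.41. The number of members that fell was 1 to 2 when single arrays were left out, 1 without KO 3, 2 without the variance trend and 3 under the other filters, normalizations, probe set choices and array weights. The number of genes changed, 393, became 139 without the variance trend, and 88 to 379 when single arrays were left out (215 without KO 1, 170 without KO 2, 88 without KO 3, 206 without WT 2 and 131 without WT 3). The number of interferon pathway genes changed, 8, became 2 without the variance trend and 1 to 6 when single arrays were left out. Replicate numbers did not pair the arrays. Deviations of same-numbered KO and WT arrays correlated at -0.021, -0.0074 and 0.039, and not every array correlated best with its own number. With the replicate number as a block, 394 genes changed, 310 of them among the 393, and 4 members fell, Iigp1 joining (adjusted p = 0.0326). The block left 8 interferon pathway genes changed, 7 lower and 1 higher. Gbp6 could be tested only without the background filter (-0.26, adjusted p = 0.529). Causes were not tested.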
